A study of Mus musculus with 8 samples.

Results

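The genes described here encode the pore-forming and auxiliary subunits of voltage-gated calcium and sodium channels and the TRPC, TRPM and TRPV members of the transient receptor potential family of cation channels. They were chosen by symbol alone, as the genes whose names start with Cacna, Cacnb or Cacng, those named Scn with a number and ending in a or b, and those that start with Trpc, Trpm or Trpv and a number. The rule found 57 of the 22485 genes named on the arrays, of which 25 belong to calcium channels, 11 to sodium channels and 21 to the TRP group. Trpc4ap fits the rule by its name, although it encodes a protein associated with TRPC4 rather than a channel. The 57 genes lie on 92 of 33026 named spots, and 64 spots of 47 genes had at least 3 values in each group and could be tested.

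RNA of the adrenal medulla, separated surgically from the cortex, was measured on 8 two-colour arrays of male mice on the 129/SvJ background aged 10 weeks. The SDHD-ESR mice carry 1 floxed and 1 null SdhD allele together with the tamoxifen-inducible Cre-ER recombinase, so that tamoxifen removes the only working copy of the gene for a membrane-anchor subunit of mitochondrial complex II. Their heterozygous (+/-) littermates carry the same floxed and null alleles without Cre. The reference was RNA pooled from 8 homozygous (+/+) mice, which carry 1 floxed and 1 intact allele and no Cre. Per the labels, mice were given 100 µg/g tamoxifen intraperitoneally at 9 weeks of age, in 4 daily injections, and were sacrificed 1 week after the first one. Each array held RNA of 2 mice of 1 group labelled with Cy5 against the same +/+ pool labelled with Cy3, with 4 arrays per group and no dye swap. Replicates 1 and 2 of both groups were on 1 slide and replicates 3 and 4 on a second one. The +/- mice lack Cre, so Cre itself and the loss of SdhD cannot be told apart in this comparison, and neither the labels nor the methods name the promoter that drives Cre.

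Chromaffin cells, the main cells of the adrenal medulla, are excitable. Voltage-gated sodium channels carry the upstroke of their action potential, and voltage-gated calcium channels admit the calcium that triggers the release of catecholamines. A calcium channel is built around a pore-forming subunit (the Cacna1 genes), whose traffic to the membrane and gating are set by a cytosolic beta subunit (Cacnb) and an extracellular alpha2delta subunit (Cacna2d). A sodium channel is built around 1 large pore-forming subunit with smaller beta subunits beside it. TRP channels are cation channels opened by receptor signalling, calcium, heat, osmotic stress or oxidants, and most pass calcium. The comparison of SDHD-ESR with +/- asks which of these transcripts differ soon after the second SdhD allele is lost.

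Every value is a log2 ratio of 1 array to the +/+ pool, on which 0 is the pool and 1 is a factor of 2. The ratios hold no level, so whether the tissue expresses a given channel, or how much of it, cannot be read from them. Nor can the levels of the marker genes that would identify the tissue. Sdhd itself stood at -1.10, -2.25, -0.74 and -0.29 on the +/- arrays and at -5.00, -6.19, -5.26 and -4.86 on the SDHD-ESR arrays. The 8 values did not overlap, and the difference was -4.23. Its direction was set by the processing, which turned the sign of every value so that Sdhd falls. The array medians over all spots ran from -0.24 to 0.32 in +/- and from -0.12 to 0.10 in SDHD-ESR, which is as wide as many of the differences between channel genes below. On SDHD-ESR replicate 1, only 46.6% of the lines of the array's grid correlated with the other arrays at their own place, while 40.2% matched the line before and 13.2% were mixed. This array was used only in the first part, and was left out of every channel spot that lies elsewhere, which leaves 3 SDHD-ESR values for those spots.

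Trpm5 was the only channel gene whose groups did not overlap, and Scn8a had a spot above the pool on every array. Trpm7 was the tested member with the most copies of the core that hypoxia-inducible factors bind. The promoters of these 3 members are shown as sequence only, and no result below rests on them. Each is the window from 250 bases before to 50 after a RefSeq transcription start on GRCm38.p6, with the core (ACGTG or GCGTG, on either strand, overlapping matches counted once) in capitals.
Trpm5, chr7:143094593-143094892, minus strand: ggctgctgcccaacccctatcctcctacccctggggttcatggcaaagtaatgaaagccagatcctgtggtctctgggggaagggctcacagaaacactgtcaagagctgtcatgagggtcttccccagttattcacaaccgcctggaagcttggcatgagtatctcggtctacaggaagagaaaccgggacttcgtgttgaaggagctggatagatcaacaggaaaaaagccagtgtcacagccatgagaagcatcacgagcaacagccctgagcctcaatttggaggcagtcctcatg
Scn8a, chr15:100870395-100870694, plus strand: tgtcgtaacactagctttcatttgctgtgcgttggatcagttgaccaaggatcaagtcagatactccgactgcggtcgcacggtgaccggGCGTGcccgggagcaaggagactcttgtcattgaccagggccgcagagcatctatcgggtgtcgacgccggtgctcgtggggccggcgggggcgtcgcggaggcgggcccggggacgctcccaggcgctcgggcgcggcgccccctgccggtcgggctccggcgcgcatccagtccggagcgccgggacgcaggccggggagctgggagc
Trpm7, chr2:126876212-126876511, minus strand: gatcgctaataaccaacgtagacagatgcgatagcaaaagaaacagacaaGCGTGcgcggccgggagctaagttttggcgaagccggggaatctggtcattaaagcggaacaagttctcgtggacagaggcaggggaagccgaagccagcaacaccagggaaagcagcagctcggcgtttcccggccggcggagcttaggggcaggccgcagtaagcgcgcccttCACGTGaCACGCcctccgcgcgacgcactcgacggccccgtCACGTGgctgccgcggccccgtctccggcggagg
The Trpm5 window holds 0 copies of the core, the Scn8a window 1 and the Trpm7 window 4. Another Scn8a window, at a different start, is not shown and also holds 1. RefSeq windows were matched for 48 of the 57 genes, and 33 of their 62 windows (53.2%) hold the core at least once, beside 43.8% of all 32851 windows of this length. A match gives letters and not a bound site.

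No channel transcript differed between SDHD-ESR and +/- past the adjusted threshold. The deleted gene Sdhd did not pass it either, at a difference of -4.23 (limma, adjusted p = 0.219). Of the 64 channel spots, 0 reached an adjusted p of 0.05, beside 0.00% of all 26949 spots tested, and the smallest adjusted p was 0.987. At an unadjusted p of 0.05, 0 of the 64 passed, beside 4.89% of all spots. By gene, 27 of the 47 were lower in SDHD-ESR and 20 higher, with a median difference of -0.03, while 57.0% of all 18596 genes were lower, with a median of -0.04. The direction of the channel median depends on the scaling, since 23 genes were lower and 24 higher with a median of 0.03 once the median of each array was set to 0. The sodium channel genes split into 4 lower and 6 higher, the calcium channel genes into 12 and 9, and the TRP genes into 11 and 5.

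**Figure D1:**
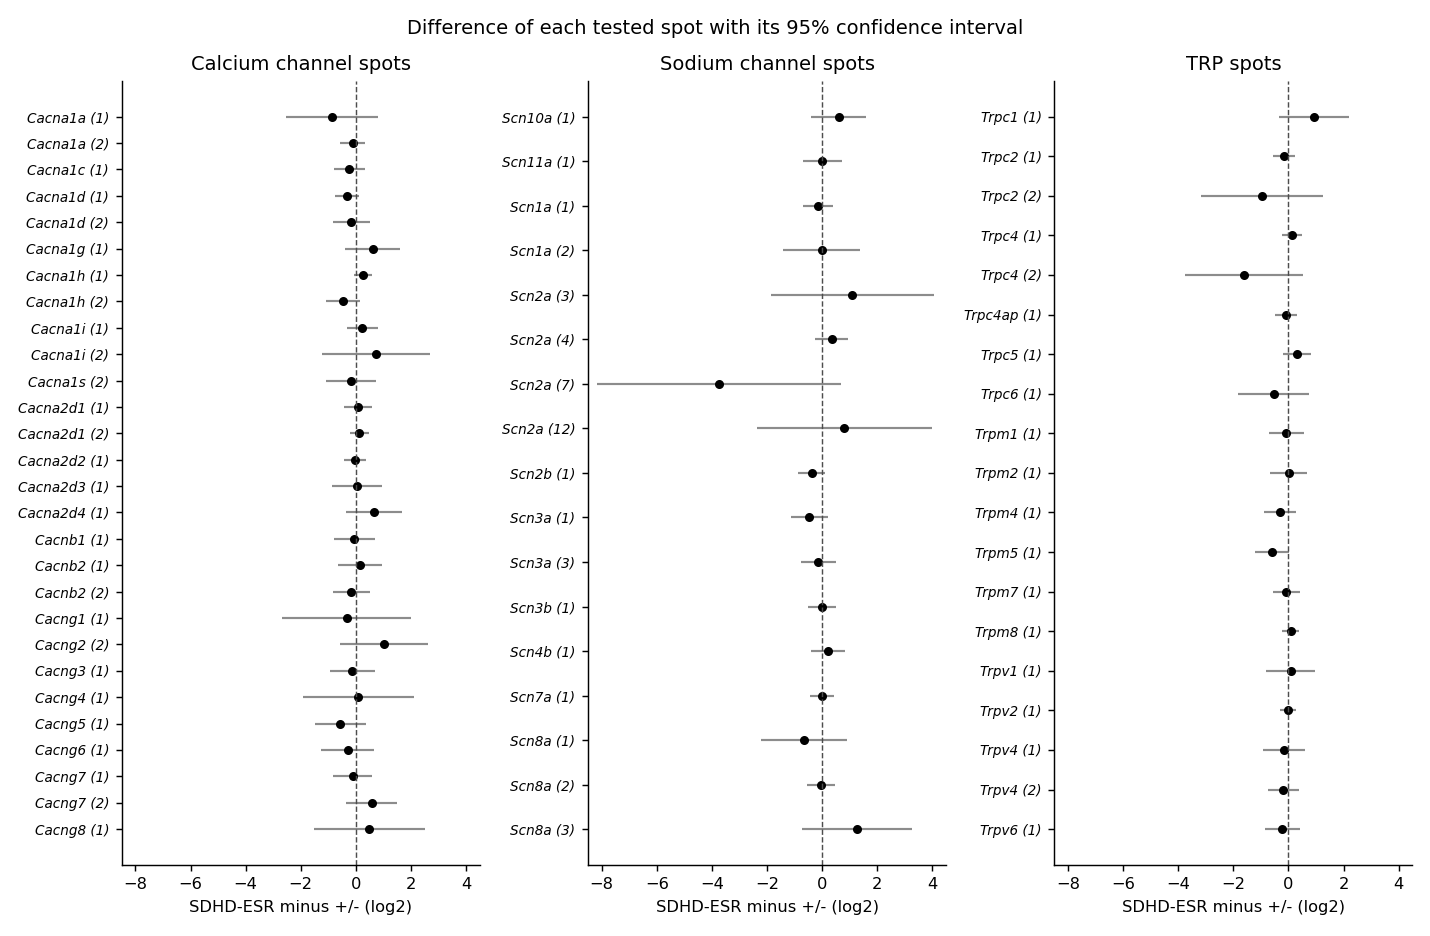
SDHD-ESR minus +/- on the log2 scale (horizontal axis) for the 64 tested spots, with the spot's number in brackets; points are differences of group means and bars are 95% confidence intervals from limma. All 64 bars reach across 0, and their widths range from those of Trpv2, Cacna1h spot 1 and Trpm8 to that of Scn2a spot 7.

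How much a difference was bounded varied between spots. For 38 of the 64 spots the 95% interval lay within -1 and 1, so that a change by a factor of 2 or more was outside it. For 7 spots the interval lay within -0.5 and 0.5, namely those of Cacna2d1 spot 2, Cacna2d2, Scn7a, Trpc4 spot 1, Trpc4ap, Trpm8 and Trpv2. The other 26 spots left changes by a factor of 2 open in at least 1 direction.

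Among the pore subunits of calcium channels, 7 of 10 genes could be tested, and 5 of them were lower in SDHD-ESR and 2 higher. Cacna1d encodes an L-type pore that supports the pacemaking of chromaffin cells. Its gene value was -0.23, 0.15, 0.21 and 0.33 on the +/- arrays and -0.35, 0.24, -0.18 and -0.19 on the SDHD-ESR arrays. The groups overlapped, and the difference of -0.24 gave p = 0.29 in the exact permutation test. Cacna1c, the L-type pore of cardiac and smooth muscle that chromaffin cells also use, averaged -0.19 ± 0.38 in +/- and -0.42 ± 0.32 in SDHD-ESR (SD, n = 4 and 4). Its 95% interval for the difference ran from -0.79 to 0.33. Cacna1a encodes the P/Q-type pore of nerve endings and chromaffin cells. Its values were -0.93, -0.14, -0.16 and -0.27 in +/- and -0.76, -0.53, -0.09 and -2.08 in SDHD-ESR, with the lowest value on SDHD-ESR replicate 4. The difference was -0.49 with that replicate and -0.09 without it, and the first of its 2 spots read -3.70 there while the second read -0.46.

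The T-type pores open near the resting potential. Cacna1h, a T-type pore known from hypoxic chromaffin cells of the rat, has 2 spots that pointed in opposite directions. The first spot read -0.04, 0.03, 0.08 and 0.38 in +/- and 0.37, 0.39 and 0.37 in 3 SDHD-ESR arrays, a difference of 0.27 (95% interval -0.06 to 0.60). The second spot read 0.30, 0.73, 0.44 and 0.29 in +/- and -0.69, 0.44, -0.16 and 0.30 in SDHD-ESR, a difference of -0.47 (-1.08 to 0.15). The gene value, the median of the spots with a value on an array, differed by -0.23 with overlapping groups (exact permutation p = 0.57). On SDHD-ESR replicate 1 it is the second spot alone, at -0.69, and without that array the difference was 0.01. Cacna1g, the second T-type pore, averaged -0.30 ± 0.74 in +/- (SD, n = 4) and 0.32 ± 0.21 in SDHD-ESR (SD, n = 3) at its tested spot. The groups overlapped and the exact permutation test gave p = 0.29. The other Cacna1g spot, not tested, read -1.05 and -2.62 in +/- and -2.21 and 0.10 in SDHD-ESR. Cacna1i, the third T-type pore, differed by 0.23 and 0.72 at its 2 spots. Cacna1s, the pore of skeletal muscle, differed by -0.18 at its tested spot.

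The alpha2delta subunits bring calcium channels to the membrane, and those encoded by Cacna2d1 and Cacna2d2 are the targets of gabapentin. Cacna2d1 was above the pool on all 7 arrays with a value, at 0.02, 0.28, 0.40 and 0.35 in +/- and 0.66, 0.12 and 0.33 in SDHD-ESR, and the groups overlapped. Both of its spots gave small differences, 0.08 and 0.13. The tested spot of Cacna2d2 was also above the pool on all 6 arrays with a value. It read 0.35, 0.28 and 0.44 in +/- and 0.11, 0.54 and 0.35 in SDHD-ESR, and its difference of -0.03 had a 95% interval of -0.43 to 0.38. The other Cacna2d2 spot had 1 value, -1.60 on SDHD-ESR replicate 2, and was not tested. Cacna2d3 differed by 0.04 and was less tightly bounded, from -0.88 to 0.95. Cacna2d4, known for its place in photoreceptors, was below the pool on all +/- arrays at -0.72, -0.38, -1.76 and -1.69 and spread from -1.37 to 0.11 in SDHD-ESR.

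The beta subunits bind the pore on its cytosolic side. Cacnb1 averaged -0.06 ± 0.40 in +/- and -0.13 ± 0.55 in SDHD-ESR, and Cacnb2 -0.13 ± 0.28 and -0.14 ± 0.45 (SD, n = 4 and 4 for both). The differences of -0.06 and -0.01 were far inside the spread between arrays. The gamma group holds Cacng1 and Cacng6, linked to muscle calcium channels, and the TARP genes, among them Cacng2, Cacng3, Cacng4 and Cacng8, whose proteins escort AMPA-type glutamate receptors. All 8 were tested, 4 lower and 4 higher, with differences from -0.56 to 1.01 and overlapping groups. Cacng5, another gene of this group, stood apart from the pool in SDHD-ESR, at -1.41, -1.05, -1.40 and -1.34. In +/- it read -1.32 and -1.57 on the first slide and -0.32 and 0.24 on the second, so that the SDHD-ESR values fell inside the +/- range and the difference of -0.56 had an interval of -1.49 to 0.37.

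**Figure D2:**
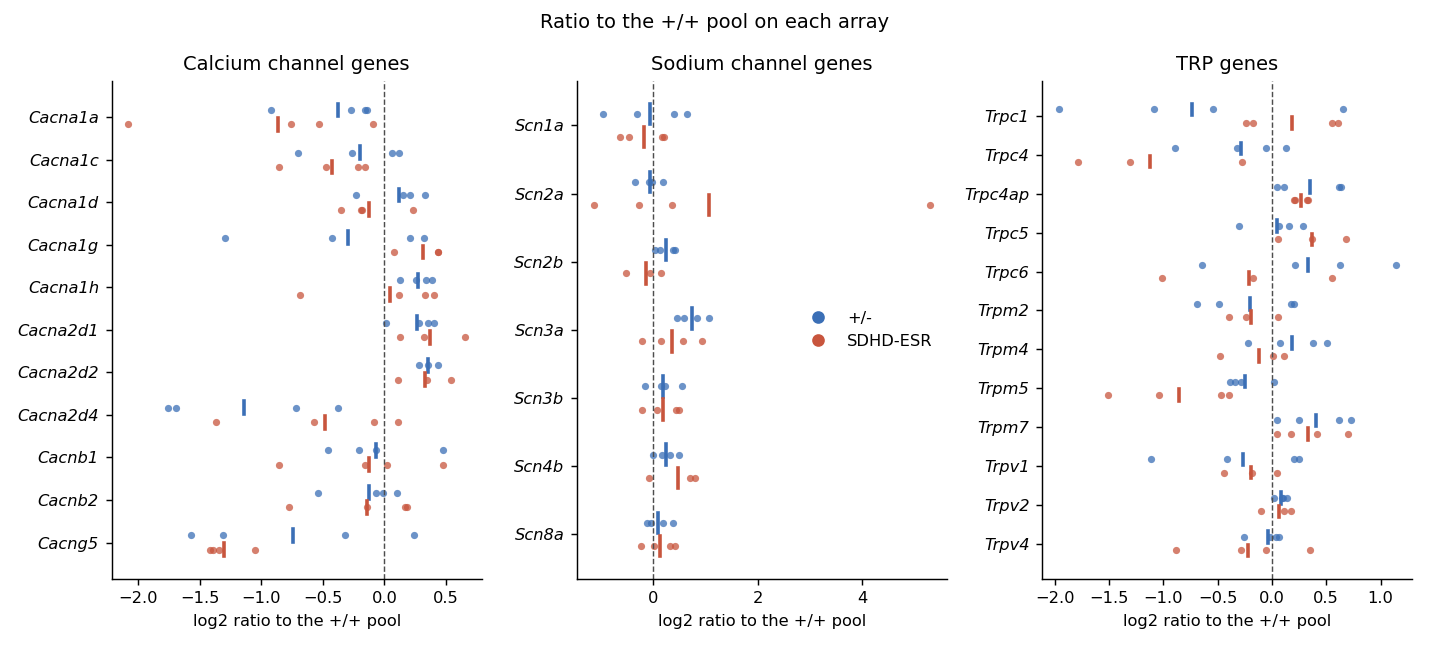
Gene values (median over tested spots) as log2 ratios to the +/+ pool on each array for the 30 tested genes named by rule; blue points are +/- arrays, red points SDHD-ESR arrays, and short bars the group means. The groups overlap in every gene but Trpm5, where the SDHD-ESR values lie from -1.51 to -0.40 and the +/- values from -0.39 to 0.02.

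Among the pore subunits of sodium channels, 7 of 8 genes were tested, 2 lower and 5 higher in SDHD-ESR. Scn3a is a neuronal sodium channel pore also found in endocrine cells. It was above the pool on every +/- array, at 0.46, 0.84, 1.06 and 0.60, and read -0.22, 0.14, 0.93 and 0.58 in SDHD-ESR. The groups overlapped and the difference of -0.38 gave p = 0.26 in the exact permutation test. Its 2 tested spots, on which these values rest, agreed in sign, at -0.46 and -0.14. Spot 2, not tested, read -0.80 and 1.96 on +/- replicates 1 and 3. On SDHD-ESR replicates 1 and 2 that spot read 2.71 and -3.67. Scn8a, a pore of nodes of Ranvier and of neurons, has 3 tested spots that did not agree. The second spot was above the pool on all 8 arrays, at 0.39, 0.72, 0.65 and 1.01 in +/- and 0.60, 1.18, 0.42 and 0.37 in SDHD-ESR, and its difference was -0.05 (95% interval -0.56 to 0.46). The first spot differed by -0.66 and the third by 1.28, with intervals of -2.23 to 0.90 and -0.71 to 3.27.

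Scn9a, often named as the main sodium channel pore of chromaffin cells, could not be tested: its spot read -1.82 and -1.58 on 2 +/- arrays and -2.49, 0.04 and -1.54 on 3 SDHD-ESR arrays. Its neighbours on chromosome 2, with no coding gene between them, are Scn1a and Scn7a. Scn1a averaged -0.05 ± 0.73 in +/- and -0.18 ± 0.44 in SDHD-ESR (SD, n = 4 and 4). Scn7a, an atypical sodium channel of glia and other cells, averaged 0.12 ± 0.19 and 0.13 ± 0.19 (SD, n = 3 and 3), a difference of 0.01 with an interval of -0.43 to 0.45. Scn10a and Scn11a, the neighbouring pores of sensory neurons on chromosome 9, differed by 0.60 and 0.000685, and the groups overlapped in both.

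Scn2a, a pore of central neurons and a neighbour of Scn3a on chromosome 2, had 12 spots under 1 accession. They should read alike on an array and did not. On single arrays the SD between its spots ran from 1.04 to 2.86, beside a median of 0.214 over 387 accessions with 10 or more spots. Only 62 of the 96 possible values were usable, and 45 of the 69 ratios left after whole numbers were dropped were exact ratios of 2 small whole numbers, a kind of value described below. The 4 tested spots differed by 1.09, 0.34, -3.74 and 0.81. The gene value of 5.30 on SDHD-ESR replicate 1 rests on 1 spot. The gene's difference of 1.13 (exact permutation p = 0.74) turned to -0.49 without that array.

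**Figure D3:**
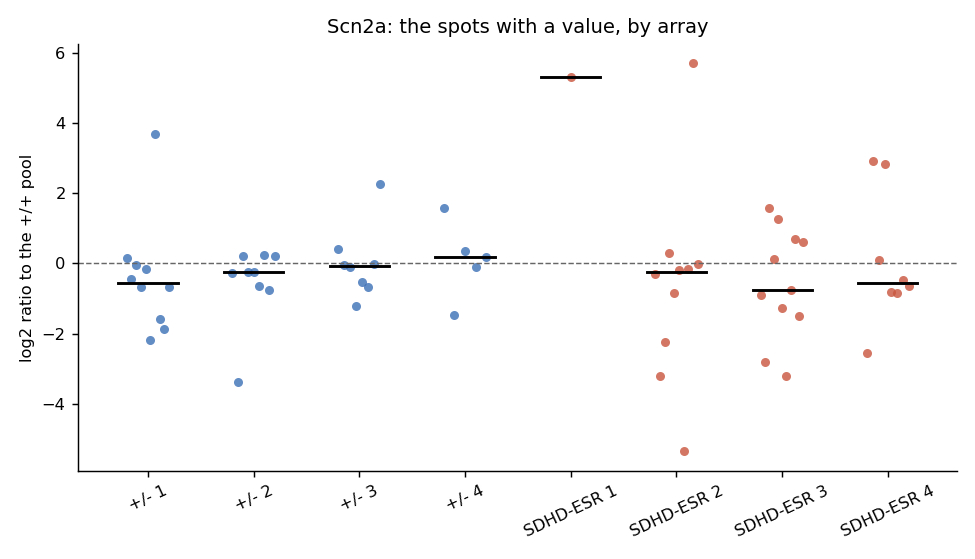
Log2 ratio to the +/+ pool of each Scn2a spot with a value, by array (blue +/-, red SDHD-ESR; black bars are medians over the spots of an array). Spots of 1 accession range from -5.36 to 5.70 on SDHD-ESR replicate 2, and SDHD-ESR replicate 1 holds 1 value.

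The beta subunits of sodium channels set gating and anchor the channel to adhesion proteins. Scn3b averaged 0.20 ± 0.29 in +/- and 0.20 ± 0.33 in SDHD-ESR (SD, n = 4 and 4), and its 95% interval of -0.50 to 0.50 was centred on 0. Scn2b and Scn4b are neighbours on chromosome 9, the chromosome that also carries Sdhd. Scn2b read 0.03, 0.39, 0.43 and 0.14 in +/- and 0.15, -0.51 and -0.06 in SDHD-ESR. Most of its SDHD-ESR values were low, but 1 lay inside the +/- range, and the difference of -0.39 had an interval of -0.87 to 0.10 (exact permutation p = 0.14). With the shifted lines of SDHD-ESR replicate 1 moved back by 1 line and used, the difference was -0.53 (limma, adjusted p = 0.931). The mixed lines of that array stayed left out. Scn4b pointed the other way, with 0.33, 0.01, 0.16 and 0.49 in +/- and 0.80, -0.09 and 0.70 in SDHD-ESR.

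Among the TRP genes, and among all 47 channel genes, Trpm5 had the smallest exact permutation p. It encodes a channel for monovalent cations that calcium opens, best known from taste cells. It read -0.29, -0.34, -0.39 and 0.02 in +/- and -1.04, -0.47, -1.51 and -0.40 in SDHD-ESR, so that the 4 SDHD-ESR values lay below the 4 +/- values, by 0.01 at the closest pair. The difference was -0.61 (95% interval -1.22 to 0.01; limma, adjusted p = 0.987). The exact permutation test of the gene value gave p = 0.0286, which is the smallest that 4 against 4 arrays can give. It was 1 of 47 channel genes at or below 0.05 in that test and 1 of 47 whose groups did not overlap, beside 3.38% of all genes. After centring of the arrays the groups overlapped and the exact p rose to 0.0571, with a difference of -0.55, and it was 0.0857 after quantile normalization. Trpm5 was lower in SDHD-ESR on both slides, with differences of -0.44 and -0.77. Without +/- replicates 1, 2, 3 or 4 in turn, the groups still did not overlap, the difference lay between -0.65 and -0.52, and the exact p was 0.143, 0.143, 0.114 or 0.171. Without any 1 SDHD-ESR array the groups did not overlap either, the difference lay between -0.76 and -0.39, and the exact p stayed at 0.0286. In such a bulk sample, fewer cells of a type and less RNA per cell cannot be told apart.

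The groups overlapped in the other 5 TRPM genes tested. Trpm4, the nearest relative of Trpm5 and likewise opened by calcium, averaged 0.18 ± 0.33 in +/- (SD, n = 4) and -0.12 ± 0.32 in SDHD-ESR (SD, n = 3). Trpm7, a channel for magnesium and calcium fused to a kinase, was above the pool on every array, at 0.04, 0.24, 0.62 and 0.73 in +/- and 0.41, 0.70, 0.05 and 0.18 in SDHD-ESR. The groups overlapped and the difference of -0.07 had an interval of -0.57 to 0.42. Trpm2, opened by ADP-ribose and oxidants, differed by 0.01 (-0.66 to 0.67). The cold sensor Trpm8 differed by 0.07 (-0.25 to 0.40), and Trpm1, known from the retina, by -0.09.

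TRPC channels open downstream of receptors that activate phospholipase C. Trpc1 read -0.55, 0.66, -1.96 and -1.09 in +/- and -0.17, 0.60, 0.56 and -0.24 in SDHD-ESR. Its +/- arrays spread over the whole SDHD-ESR range, and the difference of 0.92 had an interval of -0.35 to 2.19. Trpc4 has 2 spots, of which the first differed by 0.12 (-0.24 to 0.48) and the second by -1.62 (-3.76 to 0.52). Trpc5, its close relative, averaged 0.05 ± 0.25 in +/- (SD, n = 4) and 0.37 ± 0.31 in SDHD-ESR (SD, n = 3). Trpc6, found in smooth muscle and podocytes, averaged 0.33 ± 0.76 and -0.21 ± 0.78 (SD, n = 4 and 3). Trpc4ap, not a channel, averaged 0.35 ± 0.32 and 0.27 ± 0.07 (SD, n = 4 and 4), with an interval for the difference of -0.48 to 0.31. Trpc2, a channel of the mouse vomeronasal organ, differed by -0.17 and -0.96 at its 2 spots.

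Of the TRPV genes, Trpv2 had the tightest estimate of all channel spots. It read 0.01, 0.10, 0.13 and 0.09 in +/- and 0.11, -0.10 and 0.18 in SDHD-ESR, and the difference of -0.03 had an interval of -0.31 to 0.26. Trpv1, the receptor for capsaicin and heat, differed by 0.08 (-0.80 to 0.96). Trpv4, opened by osmotic swelling and warmth, differed by -0.17 and -0.19 at its 2 spots. Its lowest gene value was -0.88, on SDHD-ESR replicate 3. Trpv6, a calcium channel of epithelia, averaged -0.29 ± 0.42 in +/- (SD, n = 4) and -0.51 ± 0.29 in SDHD-ESR (SD, n = 3).

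Besides Scn9a, 9 genes had too few values for a test. Cacna1b, the N-type pore that nerve endings and chromaffin cells use, read -1.73, -0.92 and 0.95 in +/- and -1.28 on 1 SDHD-ESR array. Cacna1e, the R-type pore, read -0.62 and -1.63 in +/- and 0.96 and -0.73 in SDHD-ESR. Cacnb4 read from -1.07 to -0.26 on the 4 +/- arrays and -1.98 and 0.50 on 2 SDHD-ESR arrays. The others were Cacna1f, Trpc7, Trpm3, Trpm6, Trpv3 and Trpv5. None of these genes had a value in at least 3 arrays of each group at any spot.

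Against the +/+ pool, 0 of the 64 channel spots passed an adjusted p of 0.05 in SDHD-ESR, beside 0.0297% of all spots (8 of 26949), and 0 in +/-, beside 0.00%. At an unadjusted p of 0.05, 12 of 64 passed in SDHD-ESR, beside 18.9% of all spots, and 12 of 64 in +/-, beside 22.0%. In SDHD-ESR 6 of them were higher than the pool, beside 11.8% of all spots, and 6 lower, beside 7.07%. In +/- 9 were higher, beside 16.8%, and 3 lower, beside 5.20%. Both groups were set against the same pool, so that their ratios share its error and any dye effect, and the pool counts as 1 sample with no spread of its own.

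Among the channel genes with the smallest adjusted p against the pool, the second Scn8a spot stood at 0.69 ± 0.15 (SE) in +/- and 0.64 ± 0.15 in SDHD-ESR (limma, adjusted p = 0.0955 and 0.117). The first Scn3a spot stood at 0.92 ± 0.18 in +/- and 0.46 ± 0.21 in SDHD-ESR (adjusted p = 0.0933 and 0.301). Trpm5 stood at -0.25 ± 0.19 in +/- and -0.86 ± 0.19 in SDHD-ESR (adjusted p = 0.474 and 0.106), and Cacng5 at -0.74 ± 0.28 and -1.30 ± 0.28 (adjusted p = 0.193 and 0.106). Cacna2d4 was at -1.14 ± 0.31 in +/- and -0.48 ± 0.31 in SDHD-ESR (adjusted p = 0.119 and 0.441). Cacng5, Trpm5 and the second Scn8a spot passed the adjusted threshold in SDHD-ESR after centring of the arrays, with limma adjusted p of 0.0329, 0.0410 and 0.0458. Under that scaling 811 of all spots passed.

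The spread between arrays differed between spots together with a feature of the deposited ratios. Of the values of channel spots, 33.5% were exactly the ratio of 2 whole numbers under 100 (within 1e-06 on the log2 scale), beside 21.8% over all named spots. Both shares, and the counts per spot below, include SDHD-ESR replicate 1 as deposited in all its lines. The SDs leave out its shifted and mixed lines. What makes values of this kind was not tested. The 17 channel spots with no such value had a median SD between arrays of 0.315 and differences from -0.47 to 0.58. The 33 spots with 1 to 3 such values had a median SD of 0.421. The 14 spots with 4 or more had a median SD of 1.12 and differences from -3.74 to 1.28, and they include Cacng1, Cacng8, Trpc5, the second Trpc4 spot, 2 spots of Scn8a and 3 of Scn2a. The lowest and the highest difference of all 64 spots were at spots of this last kind. This is a description over spots, several of which share a gene.

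**Figure D4:**
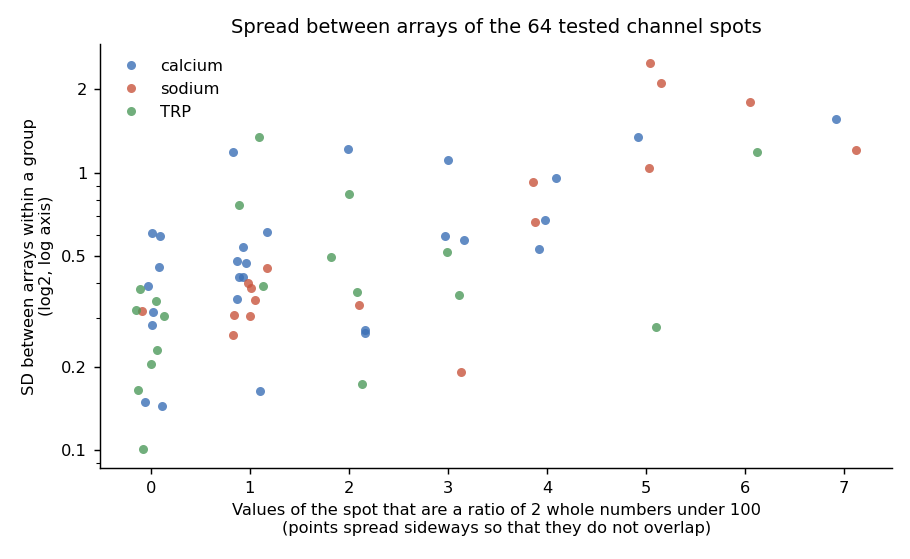
SD between arrays within a group (log2, logarithmic axis, pooled over both groups) of each of the 64 tested channel spots against the number of its values that are ratios of 2 whole numbers under 100. The median SD is 0.315 at 0 such values and 1.12 at 4 or more. The counts include SDHD-ESR replicate 1 in all its lines, and the SD only in its aligned lines.

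The direction of a difference also depended on the slide. On slide 1 14 channel genes were lower in SDHD-ESR and 33 higher, with a median of 0.20, and on slide 2 37 were lower and 10 higher, with a median of -0.32. All genes shifted alike, with 26.2% lower and a median of 0.27 on slide 1 and 78.4% lower and a median of -0.33 on slide 2. The sign was the same on both slides for 14 of 47 channel genes, beside 33.4% of all genes. The 9 that were lower on both slides were Cacna1a, Cacna1c, Cacna1d, Cacna1h, Cacna1s, Cacng3, Scn2b, Scn3a and Trpm5, and the 5 that were higher on both were Cacna1i, Cacng7, Scn10a, Trpc1 and Trpc5. After centring of the arrays the channel medians were -0.05 on slide 1 and 0.00491 on slide 2, and the sign was the same for 22 of 47 channel genes, beside 9294 of all 18596 genes. Of the genes just named, Cacna1h, Cacna1s, Cacng3, Scn3a, Scn10a and Trpc1 then differed in sign between the slides. The others kept their sign on both.

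**Figure D5:**
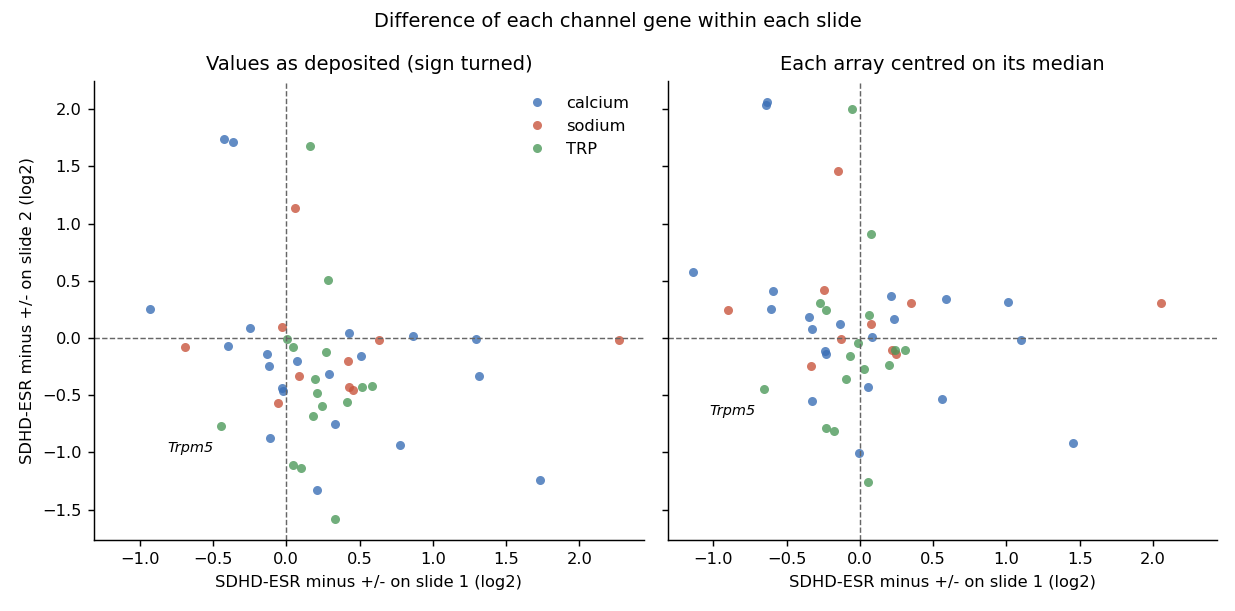
SDHD-ESR minus +/- of each of the 47 channel genes (points) on slide 1 (horizontal, log2) against slide 2 (vertical, log2), before and after centring each array on its median. Before centring most points lie at the lower right, with medians of 0.20 and -0.32; after centring the points surround the origin, and Trpm5 is low on both slides in both panels.

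The genes that handle calcium and sodium beside these channels gave a similar picture. Of a list of 46 such genes (store-operated entry, calcium stores and pumps, exchangers, other TRP genes, the sodium leak channel and channel partners), 39 could be measured, 20 lower and 19 higher in SDHD-ESR, with a median difference of -0.01. At an unadjusted p of 0.05, 1 of their 73 spots was lower, beside 3.09% of all spots, and 3 were higher, beside 1.80%. The lower one was that of Rrad, a small GTPase that holds back calcium channels, at -0.59. The 3 higher ones are not named here, and 0 of the 73 spots passed the adjusted threshold, beside 0.00% of all spots. No gene of the list had groups that did not overlap. Trpa1, the irritant receptor, had the highest difference, 0.92, and Rem2, a relative of Rrad, the lowest, -1.02.

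No marker spot of any cell type passed the adjusted threshold between the groups, but several lists leaned to lower values in SDHD-ESR. The counts below are of spots lower at an unadjusted p of 0.05, beside 3.09% of all spots, and of genes lower by any amount, beside 57.0% of all genes. Leukocyte markers were lower in SDHD-ESR in 10 of 11 genes, with 6 of 15 spots past that p, and their median on an array ran from -0.20 to 0.28 in +/- and from -0.67 to -0.37 in SDHD-ESR. Connective tissue markers were lower in 8 of 8 genes (6 of 22 spots; 0.09 to 0.52 in +/- and -1.05 to 0.36 in SDHD-ESR). Smooth muscle and pericyte markers were lower in 8 of 8 (4 of 26 spots), endothelial markers in 10 of 10 (2 of 21 spots), adipose markers in 7 of 7 (1 of 18 spots), Schwann and sustentacular cell markers in 5 of 7 (0 of 11 spots) and neuronal markers in 6 of 8 (4 of 20 spots). Skeletal muscle markers were lower in 3 of 7 (1 of 9 spots, with 1 higher). Chromaffin cell markers were lower in 7 of 13 and higher in 6, and adrenal cortex markers lower in 5 of 11 and higher in 6, with 0 spots lower and 1 higher at that p in each list. The median of the cortex markers lay between -0.0313 and 0.000840 on every array, although the medians over all spots ran from -0.24 to 0.32. Values this close to 0 do not show that these cell types stayed level, and what sets them was not tested. The part of these shifts in the channel values was not tested.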

How the data were processed

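Adrenal medulla RNA of 4 +/- and 4 SDHD-ESR arrays was analysed against a +/+ pool. The authors deposited 1 value per spot, log2 ratios of Cy5 to Cy3 mixed with whole numbers, after scanning on a GenePix reader; how background and dye effects were handled is not stated for these arrays. The base is 2 by the values (554 equal log2 of 3, 0 equal log10 or natural log of 3). The paper gives the scan wavelengths the opposite way to the usual for these dyes, and the sign of every value was turned so that the targeted gene Sdhd falls, which is the only basis for the direction. Whole numbers were dropped on the assumption that they stand in for missing ratios. This was not tested, and true ratios with a whole log2 value would be dropped with them. Whole or empty values made up 14.1% of the values of channel spots, beside 10.1% over all named spots. Spots carry no names in the deposited order and were named through the grid of 266 lines by 170 spots: the spread within copies of an accession had a median SD of 0.214 in this layout and 0.799 in file order. SDHD-ESR replicate 1 was used in its aligned lines only. Over 379 accessions with copies in both parts, its aligned and shifted parts correlated at 0.0428 as deposited and at 0.636 moved back by 1 line. No depth can be given for arrays; their number limits the precision.

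Spots with a gene symbol and at least 3 values per group (26949) were fitted with group means in limma 3.58.1 (lmFit and eBayes, R 4.3.3), tested on simulated data first, with p adjusted by Benjamini and Hochberg over all spots. Each group against the pool is its mean against 0. A gene value is the median over its tested spots, tested by an exact two-sided permutation test over all splits of the arrays. Each array is a separate pool of 2 mice. Values and figures were prepared in Python 3.11.15 with pandas 2.3.3, matplotlib 3.10.9 and numpy 2.4.6. Genes named with values are a list of channel genes known for chromaffin cells or close to their subunits, members with the smallest unadjusted p in the difference at 0.05 or less (none), up to 3 at each end by adjusted p against the pool, members whose spots disagreed in sign past 0.05 (none), and Sdhd. Other members are named for completeness and were chosen after their values were seen. The members and lists were chosen with earlier results of these data known. Some genes of these families are not reported here. Alternatives were centring, quantile normalization, SDHD-ESR replicate 1 as deposited or moved back, slide or replicate number as a block, spots with all 8 values, the methods' t-test, robust eBayes, whole numbers from -2 to 2 kept, the mean over spots, and leaving out each array. Moving back and centring together was chosen after seeing the data.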

Additional observations from a re-analysis of the deposited data

Results flagged for a closer look

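Of 47 groups of 4 arrays over the named channel genes, 1 held a value far from the other 3, and chance alone flags about 1 in 20 such groups. It was Cacna1a, the P/Q-type calcium channel pore, on +/- replicate 1, at -0.925 where the other +/- arrays read -0.14, -0.16 and -0.27.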

How the results depend on the processing

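The count of channel spots at an unadjusted p of 0.05 between SDHD-ESR and +/- was 0 and became 2 with each array centred on its median (Scn2a spot 4 higher, Trpm5 lower), 1 after quantile normalization, 1 with the shifted lines of SDHD-ESR replicate 1 moved back, 2 with both, and 0 to 7 on leaving out each array, with 7 without SDHD-ESR replicate 2. With the replicate block the count was 2 (Trpm5 and Scn2a spot 7). Over all spots the same count was 1319 and became 1846 with centring, 2020 with quantile normalization, 1471 with the lines moved back, 1988 with both, 1329 with the replicate block and 2283 of 27397 without SDHD-ESR replicate 2. Same-numbered arrays deviated together with correlations of 0.13, 0.14, -0.02 and 0.02. The values of 0.13 and 0.14, both on slide 1, were the highest of all pairs of a +/- and an SDHD-ESR array. The other pairs on slide 1 gave -0.23 and -0.09. The numbers were not taken as pairs in the main fit. Against the pool, the channel calls in SDHD-ESR rose from 0 to 3 with centring, with quantile normalization, and with moving back and centring, and stayed at 0 on leaving out any array; in +/- they rose from 0 to 3 (Scn3a, Trpm7 and Scn8a) with quantile normalization, under which 1812 of all 26949 spots were called. The count of all spots called in SDHD-ESR was 8 and became 811 with centring, 1280 with quantile normalization, 76 with the lines moved back, 1487 with both, 2 with the slide as a block, 1 with the replicate block, 49 over spots with all 8 values, 1 by the methods' t-test, and 0 to 3 without each array. The cause of these changes was not tested. The median difference over channel genes ran from -0.14 to 0.03 over its alternatives, within the SD of 0.173 between array medians. Of 528 values of the 30 named genes under the alternatives, 518 moved by less than 1 SD and lost no call. Another 3 moved by more and 7, all of Trpm5, lost an exact p of 0.05. Without +/- replicate 2, 1 named gene other than Trpm5 had an exact permutation p of 0.05 or less. That gene was Trpc1, whose groups did not overlap without that array. Of the 528, 49 values of 15 genes, none of them called, took the other sign, among them Scn2a (1.13 to -0.49), Cacna1h (-0.23 to 0.01) and Cacnb1 (-0.06 to 0.18) without SDHD-ESR replicate 1. The number of arrays and the spots of wide spread limit what could be detected.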
